A study of Rattus norvegicus with 18 samples.

Results

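The cadherin superfamily genes described here were the protein-coding rows of the expression table whose symbol begins with Cdh and a digit or with Pcdh, with a mean above 1 normalized read over 18 libraries and with the endothelial cadherin Cdh5 left out. They numbered 65 of the 18172 genes tested (19113 in the table). They were 16 classical cadherins (4 of type I and 12 of type II), 3 atypical cadherins, 11 non-clustered protocadherins and 35 clustered protocadherins (3 alpha, 15 beta and 17 gamma rows). No member was lost to the filter on the mean, and 41 of the 65 had a median of at least 100 reads per library.

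The libraries came from an experiment on loss of a rewarding environment in adult male Sprague-Dawley rats, which were 8 weeks old at arrival. Enrichment removal (ER) rats had lived for 4 weeks under the enriched schedule and then alone, without enrichment, for 2 weeks up to tissue collection. Environmental enrichment (EE) rats stayed on that schedule until collection, with nights in groups of 10 in a large cage with toys and shelters and days in single cages, and standard housing (SH) rats lived alone throughout. Each group gave 6 libraries of polyA RNA, each from the basolateral amygdala (BLA) of 1 rat, taken as bilateral micropunches and read as single-end 50-base reads. The 3 comparisons are written EEvSH, ERvSH and ERvEE, with the group named first set against the other, and in ERvEE both groups had been enriched. The labels do not say which cage a rat lived in, and all rats were male. The values are reads per gene divided by 1 size factor per library, called normalized reads here, and 17753797 to 23450276 reads per library could be recovered from them. In bulk tissue, fewer cells of a type and less RNA per cell cannot be told apart. All 10 marker lists of brain cell types were measured, and no marker gene in the table was at 0 in every library.

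Cadherins are calcium-dependent adhesion proteins of the cell surface. Classical cadherins bind the same or a related cadherin on the neighbouring cell and couple through catenins to actin, and in the brain they hold synaptic membranes together and mark particular neuronal populations and their targets. Non-clustered (delta) protocadherins act in axon outgrowth and synapse remodelling, whereas the clustered protocadherins of the alpha, beta and gamma clusters are expressed in different combinations by single neurons, which gives a neuron a surface identity used for self-avoidance of its own branches. Each variable exon of a cluster has its own promoter, and in mouse and human these promoters carry a short conserved element and are bound by CTCF, a protein that folds chromatin into loops.

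RefSeq promoter sequences (GRCr8, 250 bases before to 50 bases after each gene start) were available for 50 of the 65 member rows. The letters shared by the clustered promoters are shown as a description, and some of the genes below were picked by their values in rat SH 3, described next. The most frequent word of 10 bases among the beta promoters, GGTGGCGCTG, stood in all 13 of the beta members' promoters (12 of the 13 within 100 bases before the start), in none of the 12 gamma promoters, in none of the 11 classical cadherin promoters and in 0.221% of all 33469 promoters, searched on both strands. The most frequent word among the gamma promoters, GCTGTTCACC, stood in 6 of 12 gamma promoters, in none of the 13 beta promoters and in 0.12% of all promoters. Both words were chosen after the promoters had been read, no member's promoter held both, and they are a description with no test. In the sequences below, 30 bases in the direction of the gene, capitals mark the shared word. Pcdhb2 and Pcdhb10 are shown as the beta genes with the lowest and the highest value in rat SH 3 relative to other rats, Pcdhb3 and Pcdhb9 as the beta genes named by the contrasts, and Pcdhga7, Pcdhga9 and Pcdhga10 for the gamma word.
Pcdhb2 (GRCr8 chr18:29279923-29279952, plus strand, word beginning 71 bases before the start): aagaacgcagGGTGGCGCTGcagcctcaga
Pcdhb3 (GRCr8 chr18:29285604-29285633, plus strand, word beginning 61 bases before the start): atgaacgcatGGTGGCGCTGttgactaaga
Pcdhb9 (GRCr8 chr18:29379248-29379277, plus strand, word beginning 52 bases before the start): aaagacacagGGTGGCGCTGcaggctaaga
Pcdhb10 (GRCr8 chr18:29391778-29391807, plus strand, word beginning 72 bases before the start): agggacgcgtGGTGGCGCTGtctactaaga
Pcdhga7 (GRCr8 chr18:29794211-29794240, plus strand, word beginning 31 bases before the start): tctgcgtgccGCTGTTCACCaaccatgaga
Pcdhga9 (GRCr8 chr18:29815789-29815818, plus strand, word beginning 46 bases before the start): tctgagcgccGCTGTTCACCaactgtaaga
Pcdhga10 (GRCr8 chr18:29825820-29825849, plus strand, word beginning 96 bases before the start): tctgagcgccGCTGTTCACCtaccaggagc
Any relation of these words to the values in SH 3 was not tested.

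Among the 18 libraries, SH 3 and SH 1 stood apart. On the first principal component of all genes tested (20.4% of the variance) the score of SH 3 was -137.2 and that of SH 1 was -45.1, whereas the remaining 16 scores ran from -0.22 to 21.7. In SH 3, 44 of the 65 members (67.7%) had their lowest value of all 18 libraries, a position that SH 3 held for 24.4% of all genes tested. The share was 28 of 35 clustered protocadherins (80.0%), 9 of 16 classical cadherins (56.2%) and 6 of 11 non-clustered protocadherins (54.5%). Relative to the median of the other 16 libraries, the median clustered protocadherin in SH 3 was at -1.66 on the log2 scale, the median classical cadherin at -0.93 and the median non-clustered protocadherin at -0.82, beside -0.06 for all genes tested. SH 1 went the same way to a smaller extent, with medians of -0.48, -0.33 and -0.04 for these classes and -0.03 for all genes. The summed markers of SH 3 lay inside the range of the other 16 libraries in 10 of 10 cell type lists, and those of SH 1 in 8 of 10, with astrocyte and inhibitory neuron markers above it. Single marker genes were low in SH 3 all the same. There 13 of the 76 marker genes (17.1%) lay more than 1 below the other rats' median on the log2 scale, beside 63.1% of the members and 20.5% of all genes tested. They included 4 of the 8 excitatory neuron markers, among them Camk2a (-1.28) and Tbr1 (-1.23). Also among them were the interneuron gene Lhx6 (-2.46), the astrocyte glutamate transporter Slc1a2 (-2.40) and the microglial receptor gene Cx3cr1 (-1.30). Other markers of the interneuron, astrocyte and microglia lists were higher in SH 3 than the other rats' median, such as Pvalb (1.425), Aldoc (0.68) and C1qa (0.76). Over the 76 marker genes the median difference was -0.18. The part of these differences in the low cadherin values was not tested. The recovered reads of SH 3 (21726919) also lay inside the range of the other libraries. Because both rats are in the SH group, each member listed in a contrast with SH is given with and without them.

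**Figure D1:**
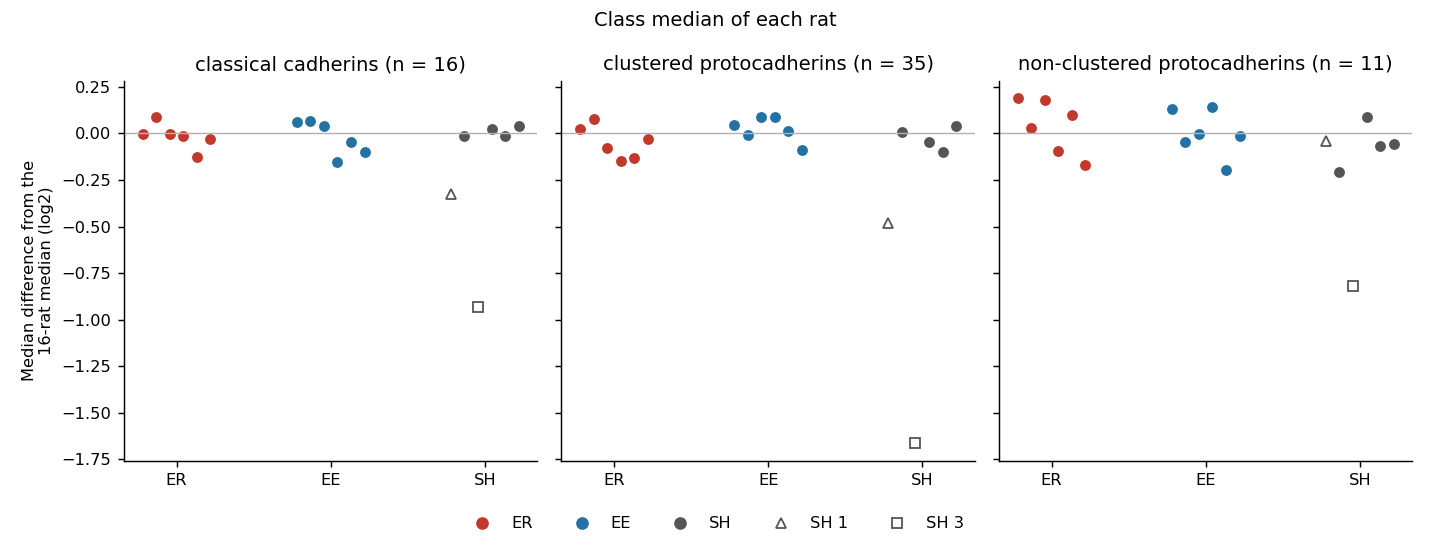
For each rat (1 point), the median over the genes of a class of the log2 difference from the median of 16 rats (all but SH 1 and SH 3), for ER, EE and SH rats. The open square (SH 3) lies at -0.932, -1.664 and -0.817 in the 3 panels and the open triangle (SH 1) at -0.326, -0.482 and -0.039, while the other SH rats lie within the range of the ER and EE rats for the classical cadherins and the clustered protocadherins.

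Within SH 3 the members did not move as 1 block. Pcdhga9 had 3.22 normalized reads in SH 3, against 41.9 to 128 in the other 16 rats, and Pcdhb2 had no read in SH 3, against 6.70 or more. Pcdh7, a delta-1 protocadherin, had 212 in SH 3, against 1051 to 1910.3, and Cdh6, a type II cadherin, 5.37 against 38.0 to 121. All 4 genes thus lay below every other rat of the 16 in SH 3. N-cadherin (Cdh2), which joins synaptic membranes, was not low there, with 4829.8 in SH 3 and 4014 to 5100.2 in the other 16. Cdh13, the cadherin held in the membrane by a lipid anchor, was higher in SH 3 (2842) than in any of the 16 (1442 to 2470.2), and so was Cdh15 (615, against 161 to 585). These genes were chosen after their values were seen.

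The 3 protocadherin clusters lie in a row on rat chromosome 18, and RefSeq gives the order of their genes. All 17 gamma rows were below the other rats' median in SH 3 and 16 of the 17 were below it by more than 1 on the log2 scale, whereas among the 15 beta rows 12 were below it and 9 by more than 1. The beta genes Pcdhb5, Pcdhb9, Pcdhb19 and Pcdhb20 lay at -0.04, -0.14, 0.17 and 0.02, although Pcdhb4 and Pcdhb7 on either side of Pcdhb5 were at -1.81 and -1.77 and Pcdhb21 and Pcdhb22 next to Pcdhb20 at -1.72 and -2.30. Of the genes tested around and between the clusters that are not members, 11 in number, the median difference in SH 3 was 0.06 and the range -3.65 to 0.61. The value of -3.65 belonged to Pcdhb6, a protocadherin gene inside the beta cluster. RefSeq gives it as protein-coding, but the expression table does not, so it is not a member. The genes that flank the clusters, Zmat2 on one side and Diaph1 on the other, lay at 0.61 and 0.06. Taf7 and Slc25a2, between the beta and the gamma genes, lay at -0.44 and -0.94.

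**Figure D2:**
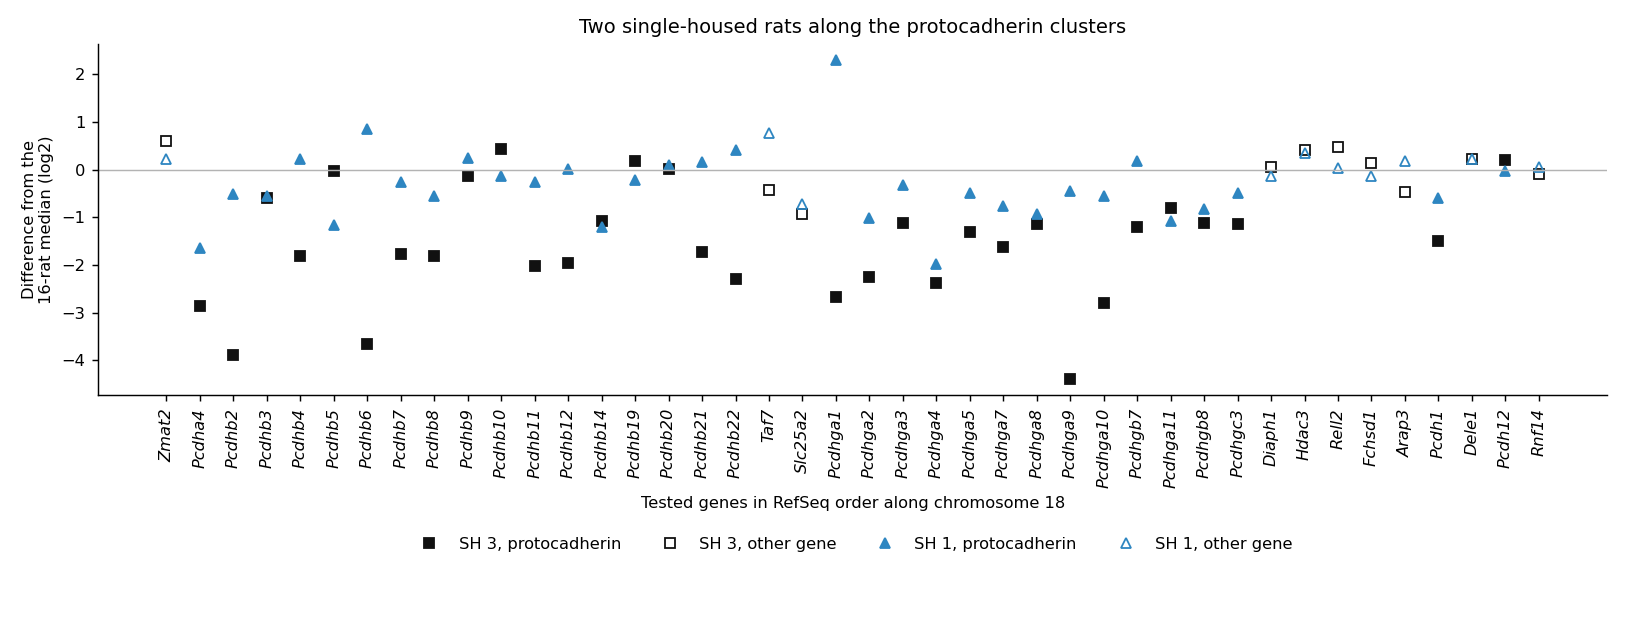
Log2 difference of SH 3 (squares) and SH 1 (triangles) from the median of the other 16 rats, for the genes tested between Zmat2 and Rnf14 in RefSeq order along chromosome 18 (protocadherins filled, other genes open). Most beta and gamma genes are low in SH 3, down to -4.40 for Pcdhga9, while the other genes on both sides of the clusters lie between -0.47 and 0.61 and Pcdhga1 is high in SH 1 (2.30). Between the beta and gamma genes, Taf7 and Slc25a2 lie at -0.44 and -0.94 in SH 3.

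No cadherin or protocadherin passed the test in any contrast. With limma on log2(value + 1) and Benjamini-Hochberg adjustment over all genes tested, 0 of 65 members had an adjusted p under 0.05 in EEvSH, ERvSH or ERvEE, and of all genes the share called was 0% for EEvSH, 0% for ERvSH and 0% for ERvEE. An unadjusted p under 0.05 was reached by 1067 genes for EEvSH, by 1434 for ERvSH and by 665 for ERvEE. By count-based tests on the recovered reads, DESeq2 called 1, 2 and 2 genes at an adjusted p under 0.05 in these contrasts and edgeR called 0, 0 and 0, with no member among them. The smallest adjusted p of a member was 0.75 in EEvSH, 0.57 in ERvSH and 0.9997 in ERvEE. In no contrast did the 6 values of one group lie wholly apart from those of the other for any member. Among all genes tested, 0.0936% lay wholly higher and 0.077% wholly lower for EEvSH. These shares were 0.116% and 0.176% for ERvSH, and for ERvEE they were 0.0936% and 0.121%. Members with an unadjusted p under 0.05 are called listed here, and none of their differences passed the adjusted test.

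At an unadjusted p under 0.05, 5 of the 65 members (7.69%) were listed as higher and 0 as lower in EEvSH, beside 3.35% and 2.53% of all genes tested. In ERvSH 8 members (12.3%) were listed as higher and 1 (1.54%) as lower, beside 4.57% and 3.32% of all genes. In ERvEE 2 members (3.08%) were listed in each direction, beside 1.38% higher and 2.28% lower for all genes. Both contrasts with SH share the SH rats. Without SH 1 and SH 3 the members listed were 2 higher (3.08%) and 1 lower (1.54%) in EEvSH, beside 3.84% and 4.52% of all genes, and 1 higher (1.54%) and 5 lower (7.69%) in ERvSH, beside 2.66% and 3.79%. Of the 5 members listed in EEvSH with all rats 1 remained (Pcdh12), and of the 9 in ERvSH 1 remained (Pcdhga3). In ERvEE 5 members (7.69%) were then listed in each direction, beside 3.76% higher and 4.07% lower for all genes, and all 4 of those listed with all rats (Cdh8, Cdh9, Pcdh12 and Pcdhb9) were among them. Single rats also moved these counts. There were 2 members listed in EEvSH without EE 1, 4 in ERvSH without SH 1 and 0 in ERvEE without EE 5. The counts over all genes tested moved the same way, to 744, 1010 and 420, from 1067, 1434 and 665 with all rats.

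The clustered protocadherins had the highest class median in both contrasts with SH when all rats were included. In EEvSH the median log2 fold change was 0.39 for clustered protocadherins (34 of 35 positive), 0.26 for non-clustered protocadherins (10 of 11) and 0.17 for classical cadherins (11 of 16), beside 0.02 for all genes tested (53.7% positive). Without SH 1 and SH 3 these medians were 0.02 (23 of 35 positive), -0.003 (5 of 11) and -0.06 (5 of 16), and without SH 3 alone 0.14, 0.04 and 0.0005. In ERvSH the medians were 0.32 for clustered protocadherins (31 of 35 positive), 0.08 for non-clustered protocadherins (8 of 11) and 0.18 for classical cadherins (13 of 16), beside 0.01 for all genes. Without the 2 rats they were -0.04 (15 of 35 positive), 0.05 (7 of 11) and 0.006 (8 of 16). Of all genes 49.6% were positive in EEvSH and 50% in ERvSH without these rats. The share of clustered protocadherins that were positive was then 65.7% in EEvSH and 42.9% in ERvSH, and in EEvSH 13 of the 15 beta rows (median 0.07) but 8 of the 17 gamma rows (median -0.03) were positive. In ERvEE, whose medians do not depend on the SH rats, the values were -0.04 for clustered protocadherins (12 of 35 positive), -0.02 for non-clustered protocadherins (5 of 11) and -0.003 for classical cadherins (8 of 16), beside 0.003 for all genes (50.9% positive). No test was made between classes, since the genes of a class share rats and, in the alpha and gamma clusters, exons.

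**Figure D3:**
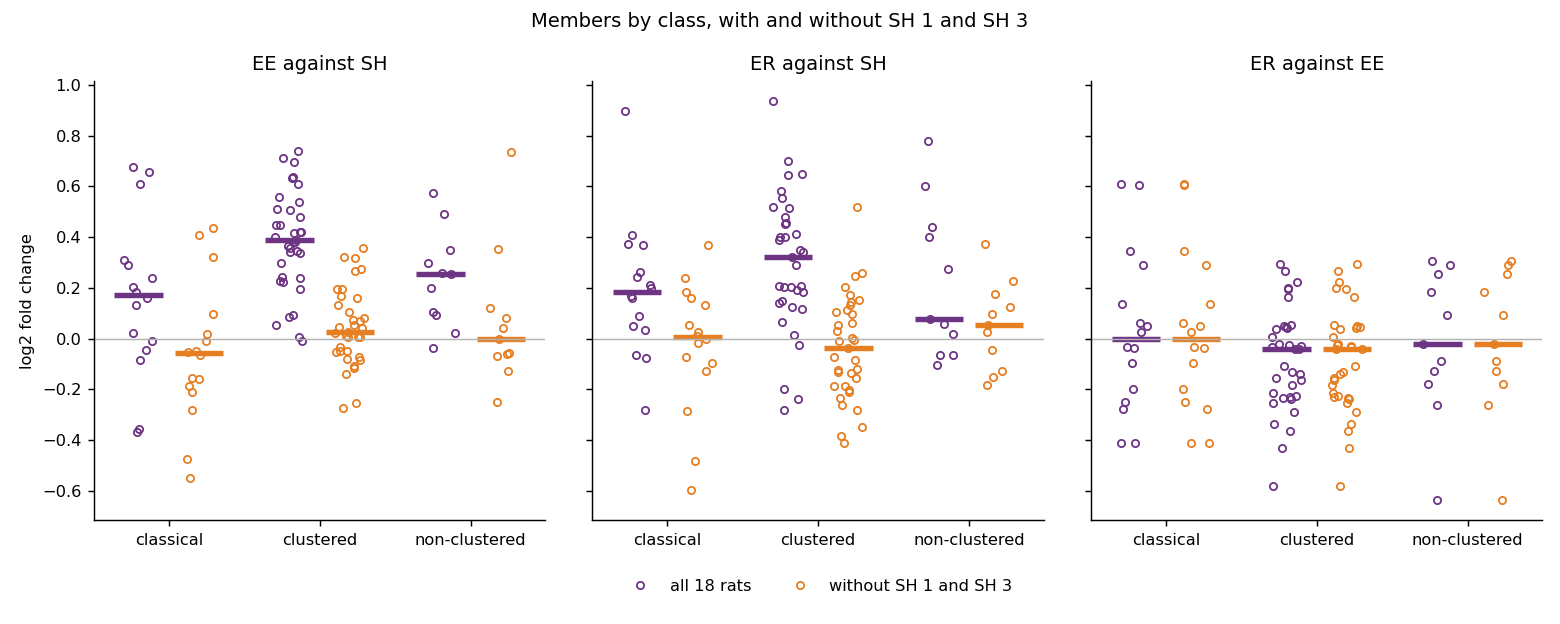
Log2 fold change of each member by class (1 point per gene, bar at the class median) in EE against SH, ER against SH and ER against EE, from all 18 rats and without SH 1 and SH 3. The median of the clustered protocadherins lies at 0.39 and 0.32 against SH with all rats and at 0.02 and -0.04 without the 2 rats, while in ER against EE it is -0.04 with either set.

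Rat by rat, the class median of clustered protocadherins ran from -0.146 to 0.076 in ER rats, from -0.091 to 0.088 in EE rats and from -1.664 to 0.038 in SH rats, and apart from SH 3 and SH 1 the lowest SH rat was at -0.097. Subtracting the classical cadherin median of the same rat gave -0.132 to 0.025 in ER rats, -0.076 to 0.24 in EE rats and -0.732 to 0.02 in SH rats. For classical cadherins the class median was -0.128 to 0.087 in ER rats, -0.153 to 0.067 in EE rats and -0.932 to 0.04 in SH rats. The 3 groups overlapped in every class.

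Of the 4 type I classical cadherins, none had an unadjusted p under 0.05 in a contrast with all rats. Cdh2 was the steadiest classical cadherin, with 4447 to 5094 (median 4829) in ER rats, 4014 to 5091 (median 4679.8) in EE rats and 4017 to 5100.2 (median 4668) in SH rats, and the groups lay on top of each other. Cdh4 (R-cadherin), which binds other cells through the same strand exchange as Cdh2, had 464 to 643 (median 587) in ER rats, 488 to 558 (median 522) in EE rats and 193 to 743 (median 550.1) in SH rats. The low end of the SH range of Cdh4 was SH 3, followed by SH 1 at 288. The EEvSH log2 difference of Cdh4 was 0.24 with all rats and -0.21 without this pair, where it was listed as lower (limma unadjusted p = 0.043, adjusted p = 0.58). Cdh3 (P-cadherin) was low in number, with 20.5 to 44.7 (median 25.9) in ER rats, 7.16 to 28.4 (median 20.8) in EE rats and 2.15 to 31.6 (median 23.0) in SH rats, and SH 3 and SH 1 were the lowest rats. Cdh15, known as the cadherin of muscle and of cerebellar granule cells, ranged from 161 to 585 in ER rats, from 188 to 423 in EE rats and from 206 to 615 in SH rats.

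Among the 12 type II classical cadherins, 4 had an unadjusted p under 0.05 in at least 1 contrast. By contrast, 2 were listed as higher in EEvSH, 1 in ERvSH and 2 in ERvEE, beside 3.35%, 4.57% and 1.38% of all genes tested. Cdh8, a cadherin of glutamatergic neurons and their synapses, had 1736 to 2356 (median 1924) in ER rats, 1043 to 2067 (median 1577) in EE rats and 1165 to 2098 (median 1591) in SH rats. All ER rats lay above the median of the EE and of the SH rats, but the ranges overlapped. The log2 difference of Cdh8 was 0.35 ± 0.15 (SE, n = 6 each; limma unadjusted p = 0.03, adjusted p = 0.9997) in ERvEE and 0.37 ± 0.15 (SE, n = 6 each; limma unadjusted p = 0.022, adjusted p = 0.57) in ERvSH. The ERvSH difference without SH 1 and SH 3 was 0.19. Cdh9, which at hippocampal mossy fibre synapses of the mouse takes part in synapse formation, had 1568 to 3744 (median 2316) in ER rats, 1166 to 3367 (median 1379) in EE rats and 1598 to 2657 (median 2155) in SH rats. In 4 of the 6 EE rats Cdh9 was below every ER and SH rat, and the log2 difference in ERvEE was 0.61 ± 0.24 (SE, n = 6 each; limma unadjusted p = 0.019, adjusted p = 0.9997).

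The other 2 type II cadherins with an unadjusted p under 0.05 were listed in EEvSH. Cdh12, a cadherin of neurons, had 91.8 to 197 (median 145) in EE rats and 39.8 to 135 (median 90.5) in SH rats. The low SH value was SH 3, and the other SH rats overlapped the lower EE rats. The log2 difference was 0.66 ± 0.26 (SE, n = 6 each; limma unadjusted p = 0.02, adjusted p = 0.75), and 0.41 without SH 1 and SH 3. Cdh19, which in the rodent nervous system is found in myelinating glia and their precursors, had 85.8 to 262 (median 139) in EE rats and 52.7 to 111 (median 100.4) in SH rats, with SH 3 the lowest and EE 1 the highest of all rats. Its log2 difference was 0.61 ± 0.22 (SE, n = 6 each; limma unadjusted p = 0.012, adjusted p = 0.75), and 0.44 without SH 1 and SH 3. Summed markers of myelinating oligodendrocytes (10 genes) were also highest in EE 1 (179000 normalized reads) and EE 5 (160100), the same rats in which Cdh19 was highest (262 and 158.5), and ran from 74400 to 179000 in EE rats and from 78560 to 128500 in SH rats. The part of this in the Cdh19 difference was not tested. The remaining type II cadherins, Cdh6, Cdh7, Cdh10, Cdh11, Cdh18, Cdh20, Cdh22 and Cdh24, had unadjusted p-values of 0.089 or more in all 3 contrasts with all rats. Without SH 1 and SH 3, Cdh24, Cdh20 and Cdh6 were listed as lower in ERvSH (log2 differences of -0.48, -0.29 and -0.60, limma adjusted p = 0.71, 0.76 and 0.77). In ERvEE, Cdh20 and Cdh19 were then listed as lower (log2 differences of -0.28 and -0.41, limma unadjusted p = 0.0064 and 0.042, adjusted p = 0.63 for both).

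Markers of excitatory neurons varied between the same rats as Cdh8 and Cdh9. Their sum (8 genes) was 69520 to 77530 in ER rats, 57330 to 81700 in EE rats and 57930 to 74050 in SH rats, with the highest value in EE 6 and the lowest in EE 5. Cdh9 and Cdh8 were highest among EE rats in EE 6 (3367 and 2067), and Cdh8 was lowest among all rats in EE 5 (1043). The part of these markers in the ERvEE differences of Cdh8 and Cdh9 was not tested.

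The 3 atypical cadherins had no unadjusted p under 0.05. Cdh13 had 1442 to 2406 (median 1701) in ER rats, 1489 to 2470.2 (median 2037) in EE rats and 1491 to 2842 (median 1865) in SH rats, and its highest rat was SH 3. Cdh23, which forms tip links of hair cells together with Pcdh15, had 95.1 to 219 (median 175) in ER rats, 108 to 299 (median 209) in EE rats and 83.8 to 206 (median 168) in SH rats. Cdh26 was at the edge of detection, with no read in 1 or more libraries and a mean of 2.36 normalized reads over all 18 rats.

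All 3 delta-1 protocadherins, Pcdh1, Pcdh7 and Pcdh9, were listed as higher in ERvSH with all rats, beside 4.57% of all genes tested. Pcdh9, which binds homophilically in cortex and is expressed in projection neurons, had 1182 to 2183 (median 1684) in ER rats and 548 to 1519 (median 1184) in SH rats. Its log2 difference in ERvSH was 0.60 ± 0.22 (SE, n = 6 each; limma unadjusted p = 0.011, adjusted p = 0.57), and 0.37 without SH 1 and SH 3. Pcdh7, which can bind protein phosphatase 1, had 1337 to 1910.3 (median 1643) in ER rats and 212 to 1629.8 (median 1217) in SH rats, with SH 3 far below the rest. Its log2 difference was 0.78 ± 0.34 (SE, n = 6 each; limma unadjusted p = 0.033, adjusted p = 0.57), and 0.23 without the pair. Pcdh1 had 3991 to 4729 (median 4492) in ER rats and 1557 to 4583 (median 3697) in SH rats, where SH 3, SH 1 and SH 2 were the lowest. Its log2 difference was 0.44 ± 0.19 (SE, n = 6 each; limma unadjusted p = 0.031, adjusted p = 0.57), and 0.13 without the pair. All 3 ERvSH values were therefore smaller without SH 1 and SH 3, and none of them had an unadjusted p under 0.05 there. In ERvEE, Pcdh7 was then listed as higher (0.29, limma unadjusted p = 0.027, adjusted p = 0.63).

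The 5 delta-2 protocadherins (Pcdh8, Pcdh10, Pcdh17, Pcdh18 and Pcdh19) had no unadjusted p under 0.05 with all rats. Pcdh10, which in mouse takes part in removing excitatory synapses, had 3406 to 4983 (median 3788) in ER rats, 2228 to 4538 (median 3095) in EE rats and 1356 to 4167 (median 3523) in SH rats. Pcdh8 (arcadlin), which is induced by neuronal activity and takes N-cadherin into the cell, had 1542 to 2642 (median 1642) in ER rats, 1483 to 2555 (median 1930.3) in EE rats and 1279 to 2134 (median 1879) in SH rats. For both genes SH 3 was the lowest of all rats, and the other SH rats lay among the ER and EE rats. Leaving out SH 1 and SH 3, Pcdh10 was listed as higher in ERvEE (0.31, limma unadjusted p = 0.025, adjusted p = 0.63) and Pcdh17 as higher in EEvSH (0.35, limma unadjusted p = 0.042, adjusted p = 0.58).

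Of the remaining non-clustered protocadherins, Pcdh12 was listed in 2 contrasts. Pcdh12, known from endothelial cells, had 27.6 to 78.2 (median 51.2) in ER rats, 62.1 to 106 (median 77.7) in EE rats and 27.1 to 72.0 (median 58.7) in SH rats. All EE rats lay above the median of the SH rats, and 4 of the 6 ER rats lay below every EE rat. The log2 difference was 0.57 ± 0.26 (SE, n = 6 each; limma unadjusted p = 0.041, adjusted p = 0.75) in EEvSH and -0.64 ± 0.26 (SE, n = 6 each; limma unadjusted p = 0.024, adjusted p = 0.9997) in ERvEE, and the EEvSH value was 0.74 without SH 1 and SH 3, neither of which was low for this gene. Summed markers of endothelium and mural cells (7 genes) spanned 3316 to 4389 in ER rats, 3650 to 4468 in EE rats and 3361 to 4447 in SH rats. Of these 7 genes the endothelial cadherin Cdh5 alone was listed in ERvEE with all rats, in the same direction as Pcdh12. The others had ERvEE log2 differences of -0.22 (Vtn), -0.09 (Flt1, Tek and Kdr), 0.07 (Pdgfrb) and 0.11 (Rgs5). Without SH 1 and SH 3, Vtn was also listed as lower in ERvEE (-0.22, limma unadjusted p = 0.0499). Cdh5 had 173 to 191 (median 185) in ER rats, 195 to 308 (median 224) in EE rats and 181 to 228 (median 212) in SH rats, and every ER rat lay below every EE rat. Its log2 difference in ERvEE was -0.34 ± 0.11 (SE, n = 6 each; limma unadjusted p = 0.0059, adjusted p = 0.9997), and the part of endothelial cells in the Pcdh12 difference was not tested. Pcdh15, a partner of Cdh23, had 139.6 to 171 (median 145) in ER rats, 79.7 to 219 (median 166) in EE rats and 63.5 to 184 (median 155) in SH rats, with SH 1 and SH 3 lowest. Pcdh20 had 673 to 979 (median 815) in ER rats, 608 to 859 (median 769.8) in EE rats and 668 to 872 (median 805) in SH rats.

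Among the clustered protocadherins the alpha rows were Pcdha12 and 2 rows annotated as Pcdha4. Members of the alpha cluster share constant exons, as do members of the gamma cluster, so a read from these exons cannot be assigned to 1 member, and the sources used here do not say how the counting treated such reads. The high values of Pcdha12 and Pcdhgc3 are read with that limit. Pcdha12 was the least variable of all members, with 4724 to 4965 (median 4875) in ER rats, 4192 to 4921 (median 4743) in EE rats and 3636 to 4769.9 (median 4646) in SH rats. SH 3, SH 5 and EE 5 were the lowest of the 18 rats. The log2 difference of Pcdha12 was 0.14 ± 0.06 (SE, n = 6 each; limma unadjusted p = 0.046, adjusted p = 0.57) in ERvSH, and 0.10 without SH 1 and SH 3. The Pcdha4 row with the higher mean (ENSRNOG00000047174) had 65.5 to 94.9 (median 81.4) in ER rats, 73.0 to 132 (median 97.2) in EE rats and 11.8 to 131 (median 92.1) in SH rats. Its ERvSH log2 difference was 0.40 with all rats and -0.41 without SH 1 and SH 3 (limma unadjusted p = 0.047, adjusted p = 0.77).

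Of the 15 beta rows, which are single-exon genes with no constant exon, Pcdhb3 and Pcdhb9 had an unadjusted p under 0.05 with all rats. Pcdhb3 was listed as higher in EEvSH, beside 3.35% of all genes tested. Pcdhb9 was listed as lower in ERvSH and ERvEE, beside 3.32% and 2.28% of all genes. Without SH 1 and SH 3, Pcdhb8 was also listed, as lower in ERvEE (log2 difference -0.43, limma unadjusted p = 0.035, adjusted p = 0.63). Pcdhb3 had 88.0 to 139.6 (median 107) in ER rats, 112 to 152 (median 123) in EE rats and 76.3 to 119 (median 99.7) in SH rats, and 5 of the 6 SH rats lay below every EE rat. Its log2 difference in EEvSH was 0.42 ± 0.15 (SE, n = 6 each; limma unadjusted p = 0.013, adjusted p = 0.75), and 0.27 without SH 1 and SH 3. Pcdhb9 had 115 to 157 (median 117) in ER rats, 135 to 167 (median 158) in EE rats and 132 to 195 (median 150.2) in SH rats. In 4 of the 6 ER rats Pcdhb9 was below every EE and SH rat. Its log2 difference was -0.28 ± 0.13 (SE, n = 6 each; limma unadjusted p = 0.044, adjusted p = 0.57) in ERvSH and -0.29 ± 0.13 (SE, n = 6 each; limma unadjusted p = 0.04, adjusted p = 0.9997) in ERvEE, and in ERvSH -0.28 without SH 1 and SH 3. Pcdhb19, the beta row with the next highest mean, had 102 to 163 (median 133) in ER rats, 108 to 166 (median 137) in EE rats and 97.8 to 153 (median 136) in SH rats. In ERvEE 13 of the 15 beta rows had a negative log2 difference (median -0.16), beside 8 of the 17 gamma rows (median 0.04) and a median of 0.003 over all genes tested.

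Of the 17 gamma rows, Pcdhga2, Pcdhga3 and Pcdhga11 had an unadjusted p under 0.05 in ERvSH, and Pcdhga3 also in EEvSH, with all rats. All were listed as higher, beside 4.57% of all genes tested in ERvSH and 3.35% in EEvSH. Pcdhga3 had 93.8 to 156 (median 109) in ER rats, 74.2 to 119 (median 103) in EE rats and 45.1 to 99.3 (median 72.0) in SH rats. All ER rats lay above 5 of the 6 SH rats, and SH 4 overlapped them. The log2 difference of Pcdhga3 was 0.65 ± 0.19 (SE, n = 6 each; limma unadjusted p = 0.0032, adjusted p = 0.57) in ERvSH and 0.45 ± 0.19 (SE, n = 6 each; limma unadjusted p = 0.031, adjusted p = 0.75) in EEvSH. Without SH 1 and SH 3 the values were 0.52 (limma unadjusted p = 0.012, adjusted p = 0.76) and 0.32. Pcdhga3 was the only member listed in ERvSH both with all rats and without the pair.

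The other named gamma rows rested on SH 1 and SH 3 to a greater extent. Pcdhga2 had 299 to 491 (median 389) in ER rats, 300.3 to 389 (median 342) in EE rats and 73.1 to 365 (median 321) in SH rats. Its log2 difference in ERvSH was 0.70 ± 0.29 (SE, n = 6 each; limma unadjusted p = 0.024, adjusted p = 0.57), and 0.17 without SH 1 and SH 3. Pcdhga11 had 221 to 285 (median 258) in ER rats, 168 to 263 (median 210.0) in EE rats and 114 to 274 (median 186) in SH rats, with SH 1 and SH 3 again lowest. The log2 difference of Pcdhga11 was 0.52 ± 0.18 (SE, n = 6 each; limma unadjusted p = 0.0093, adjusted p = 0.57), and 0.26 without the pair. With the pair left out, Pcdhga11 was listed as higher in ERvEE (0.29, limma unadjusted p = 0.039, adjusted p = 0.63) and Pcdhgb5 as lower in ERvSH (-0.35, limma unadjusted p = 0.03, adjusted p = 0.77). Pcdhga7 had 282 to 518 (median 338) in ER rats, 308 to 477 (median 377) in EE rats and 121 to 409 (median 357) in SH rats, and Pcdhgc3, a C-type gamma gene, had 2476 to 3060.4 (median 2739.6) in ER rats, 2715 to 3217 (median 2981) in EE rats and 1305 to 3023 (median 2839) in SH rats. In both, SH 3 was lowest and SH 1 next lowest of all rats.

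**Figure D4:**
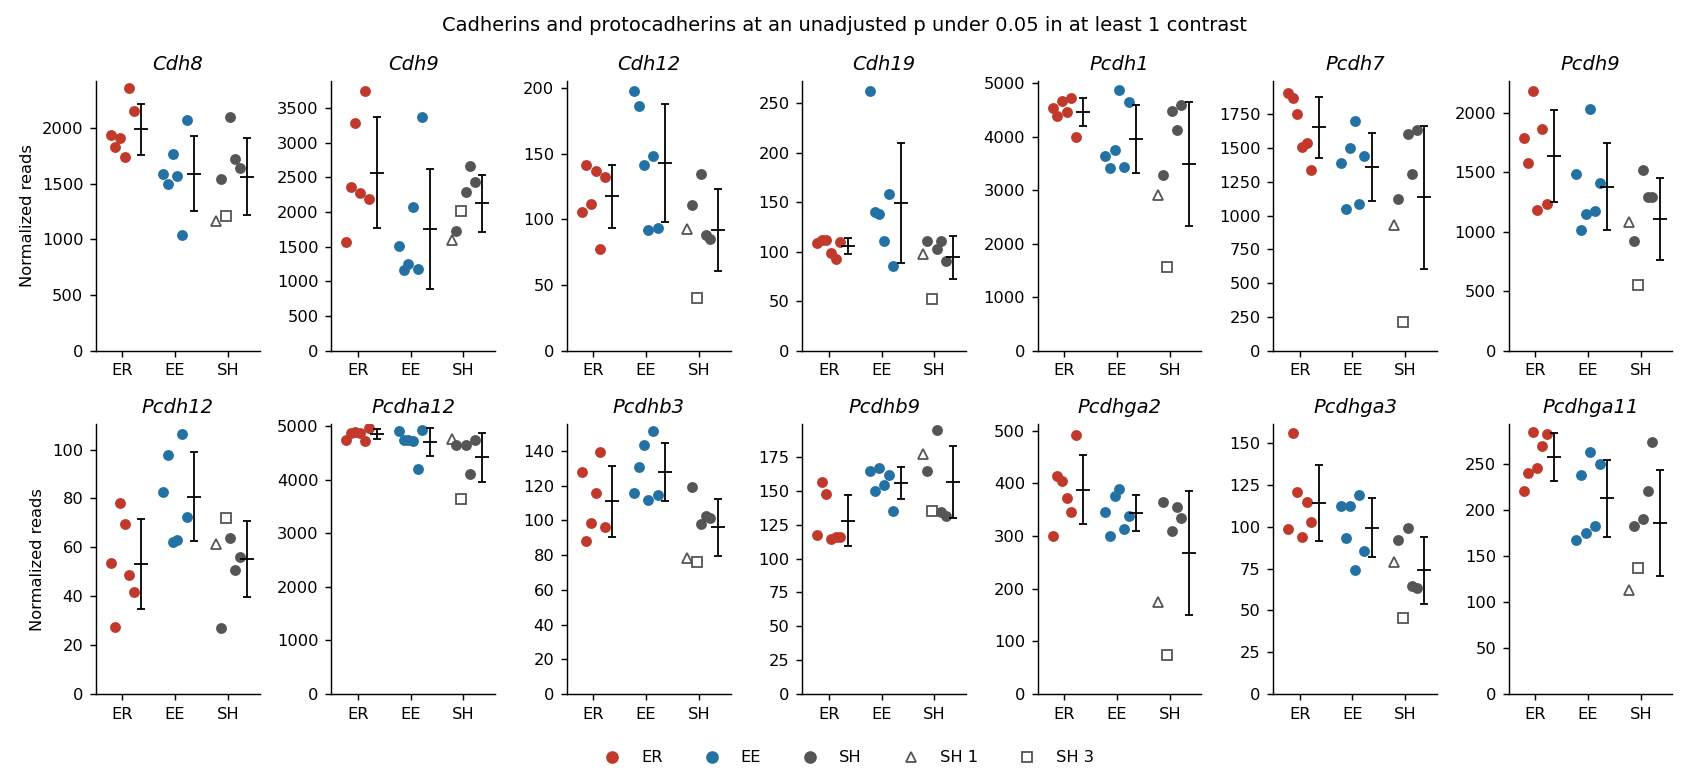
Normalized reads in each rat (1 point) of 14 members with an unadjusted p under 0.05 in at least 1 contrast, for ER, EE and SH rats, with the mean ± SD of each group (n = 6). The open triangle (SH 1) and the open square (SH 3) are at or near the low end of the SH range in most panels, as for Pcdhga2 (174 and 73.1), but neither is the lowest SH rat for Pcdh12 or Pcdhb9, and the groups overlap in every panel.

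Variation between rats also differed among members. Over the 16 rats other than SH 1 and SH 3, the pooled within-group SD of log2 values was 0.07 for Pcdha12, 0.09 for Pcdhgc3 and 0.09 for Cdh2, against 1.28 for Cdh26 and 1.37 for Pcdhga1. Median reads per library were 4407, 2504.5 and 4298 for Pcdha12, Pcdhgc3 and Cdh2, but 1 for Cdh26 and 16.5 for Pcdhga1. The median SD over the members was 0.29, beside 0.23 over all genes tested, and it was 0.28 for classical cadherins and 0.29 for clustered and for non-clustered protocadherins. The median level was 168 normalized reads for the members and 273 for all genes. The part of low read numbers in these SDs was not tested. Pcdhga1 ran from 2.15 normalized reads in SH 3 to 96.9 in SH 1.

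The proteins that work with cadherins were read from 6 lists, and none of their genes passed the adjusted test. Catenins, which link cadherins to actin, were listed at an unadjusted p under 0.05 as higher in 2 of 6 genes in EEvSH, 1 of 6 in ERvSH and 0 of 6 in ERvEE. They were alpha-N-catenin (Ctnna2), with a log2 difference in EEvSH of 0.34 ± 0.14 (SE, n = 6 each; limma unadjusted p = 0.026, adjusted p = 0.75), and p120-catenin (Ctnnd1), with 0.28 ± 0.12 (SE, n = 6 each; limma unadjusted p = 0.027, adjusted p = 0.57) in ERvSH. No catenin was listed without SH 1 and SH 3. The summed catenins were 17473 to 20043 in ER rats, 17567 to 20450 in EE rats and 12701 to 19576 in SH rats, and SH 3 held the lowest value.

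Of the 8 large cadherins of the Fat, Dachsous and Celsr families, which act in planar polarity, Fat4 alone was listed with all rats, in ERvSH. Its log2 difference was 0.63 ± 0.28 (SE, n = 6 each; limma unadjusted p = 0.038, adjusted p = 0.57), and 0.16 without SH 1 and SH 3. Without the pair, Celsr3 was listed as lower in EEvSH (-0.25, limma unadjusted p = 0.019) and Celsr2 as higher in ERvEE (0.14, limma unadjusted p = 0.031). Of the 8 calsyntenins and cadherin-related proteins, 1 was listed in each contrast with all rats. Without the pair, Cdhr2 was listed as higher in EEvSH (0.23, limma unadjusted p = 0.039). Clstn2 was then listed as higher in ERvEE (0.33, limma unadjusted p = 0.023), and Ret again as lower. With all rats the values were as follows. Cdhr5 had a log2 difference in EEvSH of 1.02 ± 0.39 (SE, n = 6 each; limma unadjusted p = 0.016, adjusted p = 0.75), and 0.60 without the pair. Clstn2, a calsyntenin of synapses, had 0.40 ± 0.17 (SE, n = 6 each; limma unadjusted p = 0.033, adjusted p = 0.57) in ERvSH, and 0.16 without the pair. The receptor kinase Ret was listed as lower in ERvEE, with -0.52 ± 0.21 (SE, n = 6 each; limma unadjusted p = 0.024, adjusted p = 0.9997).

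Of the 7 proteases that cut cadherins at the membrane, the sheddase Adam17 was listed as lower in ERvEE, with -0.26 ± 0.12 (SE, n = 6 each; limma unadjusted p = 0.04, adjusted p = 0.9997). The 12 regulators of clustered protocadherin promoters included CTCF and cohesin. Without SH 1 and SH 3, Setdb1 was listed as lower in EEvSH and in ERvSH (-0.18 and limma unadjusted p = 0.011 in each). With all rats the cohesin release factor Wapl alone of these regulators was listed, in ERvSH. It had a log2 difference of 0.37 ± 0.16 (SE, n = 6 each; limma unadjusted p = 0.028, adjusted p = 0.57), and 0.09 without the pair.

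Of the 11 protocadherin effectors, the Pyk2 and FAK kinases and the WAVE complex that drives actin branching, 3 were listed as higher in ERvSH, all of them WAVE subunits. Among all genes tested 4.57% were listed as higher there. Cyfip2 had a log2 difference of 0.21 ± 0.08 (SE, n = 6 each; limma unadjusted p = 0.018, adjusted p = 0.57), and 0.13 without SH 1 and SH 3. Nckap1 had 0.27 ± 0.12 (SE, n = 6 each; limma unadjusted p = 0.037, adjusted p = 0.57), and 0.11 without the pair, and Abi2 had 0.55 ± 0.26 (SE, n = 6 each; limma unadjusted p = 0.045, adjusted p = 0.57), and 0.10 without the pair. In ERvEE 10 of the 11 effectors had a positive log2 difference (median 0.11), beside 50.9% of all genes tested. None of the 11 was listed there with all rats, and without SH 1 and SH 3 the WAVE subunits Nckap1, Abi2 and Wasf1 were (limma unadjusted p = 0.017, 0.021 and 0.028). Among all genes tested 3.76% were then listed as higher in ERvEE. The summed reads of SH 3 lay below the other 16 rats for the catenins, the large cadherins (11263, against 14178 to 17730), the sheddases (7233, against 7596 to 8395) and the promoter regulators (13054, against 14534 to 16551), but not for the calsyntenins or the effectors. Those of SH 1 also lay below the 16 rats for the catenins (15215), the large cadherins (12681) and the sheddases (7235). For the promoter regulators (14862), the calsyntenins and the effectors SH 1 lay inside their range.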

How the data were processed

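RNA-seq libraries from BLA micropunches of 18 rats (6 ER, 6 EE, 6 SH) were analysed. The values deposited by the authors are a signal per Ensembl gene, reads divided by 1 DESeq2 size factor per library, after alignment with HISAT2 according to the submitters' processing notes. The sources used here do not give versions, genome build, annotation, or the counting of shared or antisense reads. Whole reads were recovered for 100% of values (tolerance 0.01). Genes with a mean above 1 (18172 of 19113) were tested with limma 3.58.1 (trend, empirical Bayes) in R 4.3.3 on log2(value + 1), in 1 model of 3 groups with 3 contrasts and Benjamini-Hochberg adjustment over all genes (threshold 0.05). A fold change is on the log2(value + 1) scale, which understates the change of low genes. The alternatives were TMM and upper quartile scaling, other filters and pseudocounts (0.1 and 5), fewer libraries, a replicate block, and edgeR 4.0.16, DESeq2 1.42.0 and limma-voom on recovered reads. The fit was tested on simulated data.

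Values are named for members with an unadjusted p under 0.05 or with groups that do not overlap in any contrast, and for the 2 members with the highest mean in each subfamily. From each pathway list, up to 2 genes per contrast with the smallest unadjusted p under 0.05 are named. Abi2, Wasf1, the single endothelial and mural markers and the single markers of SH 3 were added after their values were seen. So were the members and pathway list genes named as listed without SH 1 and SH 3 alone. One gene of these lists that the rule names is not reported here. The members and lists were chosen with earlier results of these data known. The labels name 1 rat per library, and no 2 libraries were duplicates (chi-square per gene 6.3 to 122). RefSeq held 60 of the 65 members by symbol.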

Additional observations from a re-analysis of the deposited data

Results flagged for a closer look

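Of 87 sets of 6 rats checked (78 of named members), 4 had 1 rat far from the other 5 by Dixon's ratio (gap over range, above the 95% critical value), and chance gives about 1 in 20. Rat SH 3 had 52.7 normalized reads of Cdh19, against 90.7 to 111 in the other SH rats (ratio 0.654). Rat EE 5 had 4190 of Pcdha12 (3 digits), against 4720 to 4920 in the other EE rats (ratio 0.718). The class median of SH 3 was -1.66 for clustered protocadherins, against -0.482 to 0.038 in the other SH rats (ratio 0.694), and -0.817 for non-clustered protocadherins, against -0.209 to 0.0867 (ratio 0.673).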

How the results depend on the processing

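No member passed an adjusted p of 0.05 under any alternative run. Of 465 alternative values of the counts and class medians, 443 stayed within the limits set for them. For a count the limit was a change of 1.5 times. For a class median it was the SD between rats within a group (clustered protocadherins 0.39, classical cadherins 0.22, non-clustered protocadherins 0.24). These SDs include SH 3 and are wide. The clustered medians without SH 1 and SH 3 (0.02 in EEvSH, -0.04 in ERvSH) thus counted as within the limit, although far from 0.39 and 0.32 with all rats. None of 558 alternative log2 differences of the members listed at an unadjusted p under 0.05 changed sign. Without SH 1 and SH 3 together, the EEvSH medians were -0.058 for classical cadherins and -0.0031 for non-clustered protocadherins. The members with an unadjusted p under 0.05 then numbered 3 in EEvSH and 10 in ERvEE, beside 1518 and 1424 of all genes. With the 2 groups of a contrast alone these members numbered 10 in ERvEE and 4 in ERvSH, beside 1295 and 1038 of all genes. With voom quality weights they numbered 11 in ERvEE and 5 in ERvSH, beside 1880 and 1386 of all genes. The cause was not tested. Leaving out each rat in turn gave 2 (without EE 1) to 10 (without SH 4) members in EEvSH. In ERvEE it gave 0 (without EE 5) to 8 (without SH 3), and in ERvSH 4 (without SH 1) to 12 (without SH 6). Over all genes tested the counts without these rats were 744 and 1612 in EEvSH, 420 and 989 in ERvEE and 1010 and 2363 in ERvSH. The EEvSH count also moved by over 1.5 times without SH 3 (3), EE 2 (3), EE 5 (3), SH 5 (8), EE 6 (8) and SH 6 (9), and the ERvEE count without ER 5 (1), EE 2 (2) and ER 6 (2). The counts over all genes were then 780, 924, 986, 1267, 1359 and 1469 in EEvSH and 406, 492 and 605 in ERvEE. The median of clustered protocadherins in ERvSH changed sign without SH 1 and SH 3 (-0.04), and in EEvSH it was 0.14 without SH 3 and 0.46 without SH 2. With the replicate block, 5, 9 and 3 members were listed in EEvSH, ERvSH and ERvEE, beside 1009, 1304 and 669 of all genes. None of these members passed the adjusted test. Samples shared only a number, since same-numbered rats correlated between -0.0826 and 0.13 and 1 of 18 pairs exceeded 0.1. Depth limits the 4 members with a median under 20 reads, and the 2 with no read in 1 or more libraries.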
